A study of Mus musculus with 22 samples.

Results

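The regions described here are those in which histone H3 monomethylated at lysine 4 (H3K4me1) was called by chromatin immunoprecipitation sequencing in MC3T3-E1 cells, a mouse calvarial pre-osteoblast line, before and after osteogenic differentiation. The members are every region on chromosomes 1 to 19 and X in the pair of H3K4me1 lists, 50823 in undifferentiated and 53858 in differentiated cells. Together they make up 104681 of the 360354 regions in the 22 lists of the study, which covered 4 transcription factors and 5 histone marks. Undifferentiated cells were compared with cells kept for 15 days in ascorbic acid and glycerol-2-phosphate. Both groups had received calcitriol, the active vitamin D hormone, at 100 nM for 3 h, so the comparison is of differentiation in the presence of the hormone. Vehicle lists of H3K4me1 were not analysed here. Passages 5 to 12 of this clonal line were used. Differentiated cultures alone were homogenized and spun through sucrose to clear mineralized matrix, so preparation and state cannot be told apart. Each state is represented by 1 list of regions, which was read as those that the authors' replicates had in common and holds no read counts. Sequencing depth is therefore unknown, no difference between states could be tested, and the 95% intervals below cover the counting of regions only. In bulk chromatin, fewer cells with a mark and less of it per cell cannot be told apart.

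H3K4me1 is written mainly by the methyltransferases KMT2C and KMT2D. It lies over enhancers, whether or not they are active, and over the flanks of promoters whose centres carry H3K4me3. Acetylation of the same nucleosomes is the usual companion of enhancer activity. In bone, the enhancers of osteoblast genes are bound by RUNX2, the transcription factor required for osteoblast formation, by C/EBPβ, and by the vitamin D receptor (VDR) with its partner the retinoid X receptor (RXR). AP-1, the dimer of FOS and JUN proteins, binds enhancers in proliferating and stimulated mesenchymal cells.

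A region was called shared when it had at least 1 bp in common with a region of the other state. Otherwise it is called undifferentiated-only or differentiated-only. The sequences below, on mm9, show factor sites that met such regions. Each is a site called in a single state, inside an H3K4me1 region of that same state only, which contains the factor's word and lies nearest to a start of a gene on the lists used here. Capitals mark the C/EBP word TTGCNNAA or the RUNX word TGTGGT, on either strand.
Ccnd2 C/EBPβ site, undifferentiated only, chr6:127196727-127196927, plus strand: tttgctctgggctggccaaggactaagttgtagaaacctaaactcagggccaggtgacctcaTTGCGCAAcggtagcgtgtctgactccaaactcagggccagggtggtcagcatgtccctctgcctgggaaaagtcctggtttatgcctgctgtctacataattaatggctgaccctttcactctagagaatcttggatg
Acta1 RUNX2 site, undifferentiated only, chr8:126368695-126368895, plus strand: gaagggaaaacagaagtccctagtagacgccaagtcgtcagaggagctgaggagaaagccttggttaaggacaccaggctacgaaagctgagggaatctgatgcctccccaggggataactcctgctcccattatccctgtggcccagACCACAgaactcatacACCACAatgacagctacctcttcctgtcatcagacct
Cdk1 C/EBPβ site, differentiated only, chr10:68789200-68789400, plus strand: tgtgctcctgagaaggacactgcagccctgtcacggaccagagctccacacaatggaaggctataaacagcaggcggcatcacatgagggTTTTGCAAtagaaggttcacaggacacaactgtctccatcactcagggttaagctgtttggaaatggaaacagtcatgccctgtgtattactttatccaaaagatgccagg
Twist1 RUNX2 site, differentiated only, chr12:34661385-34661585, plus strand: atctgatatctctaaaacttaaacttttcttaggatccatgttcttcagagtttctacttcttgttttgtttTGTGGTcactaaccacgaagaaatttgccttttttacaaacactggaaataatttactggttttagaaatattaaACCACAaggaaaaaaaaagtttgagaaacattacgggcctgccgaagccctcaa
The C/EBPβ site 95.8 kb from Ccnd2, which encodes cyclin D2, touched the edge of a 1.18 kb undifferentiated-only region. Only its first 7 bases lay inside, so the marked word lay outside the region. The RUNX2 site 49.9 kb from Acta1, the skeletal muscle actin gene, lay in an intron where the genes 1700054N08Rik and Gm20388 overlap it. Its 8.30 kb undifferentiated-only region carried H4K5ac over 93.2% in undifferentiated cells and none in differentiated cells. In differentiated cells the C/EBPβ site 16.2 kb from Cdk1, the mitotic kinase gene, lay in a 2.45 kb region fully covered by H4K5ac of that state and free of it before. A RUNX2 site 18.9 kb from Twist1, a gene for an inhibitor of osteoblast maturation, lay in a 5.59 kb region without H4K5ac, H3K9ac or H3K4me3 in either state. H3K36me3 covered 69.3% of that region in undifferentiated and 0% in differentiated cells. VDR and RXR sites of a single state that contained their own word, not printed here, did lie in such regions. They numbered 25 and 3 in undifferentiated and 1 and 2 in differentiated cells. None of them was among the candidates beside a listed gene, so none is shown.

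The word that set the classes of region apart most was that of AP-1, which none of the antibodies addressed. The next stretches come from the regions around the genes named further down and were chosen after the motif shares were seen. Of 33 single-state regions near those genes that were examined, these 4 had TGACTCA or its reverse complement within the central 1000 bp. Over all regions it was present there in 39.7% of undifferentiated-only and 15.1% of differentiated-only regions, so 4 of 33 is no excess at these genes. Capitals mark the match nearest to the centre.
Zfp423, undifferentiated-only region, chr8:90315156-90315216, plus strand: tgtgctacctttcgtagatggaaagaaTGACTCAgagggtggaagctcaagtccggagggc
Cxcl12, undifferentiated-only region, chr6:117098143-117098203, plus strand: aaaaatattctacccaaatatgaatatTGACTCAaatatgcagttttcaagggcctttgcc
Acta1, undifferentiated-only region, chr8:126370578-126370638, plus strand: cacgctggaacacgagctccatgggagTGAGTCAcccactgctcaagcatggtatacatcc
Esam, differentiated-only region, chr9:37336638-37336698, plus strand: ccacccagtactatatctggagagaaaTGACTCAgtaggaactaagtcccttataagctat
The matches at Zfp423, Cxcl12 and Acta1 lay at 55, 87 and -181 bp from the region centre, counted along the plus strand. The match at Esam lay at -307 bp.

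Most H3K4me1 was common to both states. Of the undifferentiated regions, 6887 (13.6%; 95% interval 13.3 to 13.9, exact Clopper-Pearson, as throughout) met no region of differentiated cells. Of the differentiated regions, 8884 (16.5%; 16.2 to 16.8) met none of undifferentiated cells, 1.29 times as many. With both lists limited to regions at least 2 kb wide the order turned, with 6216 (14.4%) undifferentiated-only and 5928 (13.6%) differentiated-only regions. By length the difference in the total was small: the list of undifferentiated cells covered 342.3 Mb and that of differentiated cells 339.0 Mb, a ratio of 0.990. The length common to both was 285.1 Mb of the 396.2 Mb covered in either, a Jaccard index of 0.720.

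Regions found in a single state were narrow. Their median width was 2044 bp in undifferentiated and 2030 bp in differentiated cells, against 4891 and 4526 bp for shared regions. They held 17.5 Mb (5.10%) and 23.4 Mb (6.89%) of the length of their lists. The share in a single state was smaller the wider the regions were, in both lists. Among regions of 1 to 2 kb it was 42.8% in undifferentiated and 42.3% in differentiated cells, and among regions of 5 to 10 kb it was 3.43% and 5.54%. Of regions of 20 kb or more, 1 of 2482 was undifferentiated-only and 8 of 2391 were differentiated-only.

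**Figure D1:**
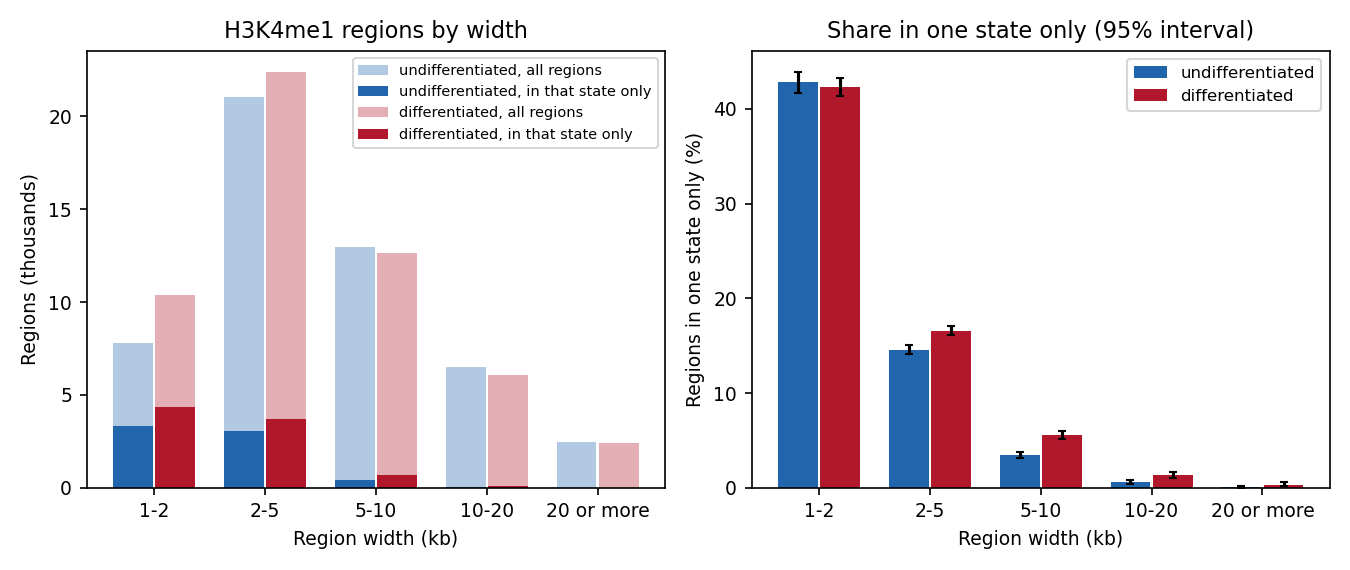
Left, the number of H3K4me1 regions (in units of 1000) by width (kb) in each state, with the regions found in that state only in full colour; right, the share of regions in a single state (%) with exact 95% intervals. The share runs from 42.8% and 42.3% at 1 to 2 kb to 0.0403% and 0.335% at 20 kb or more, in undifferentiated and differentiated cells.

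The single-state regions also ranked low by the score the authors deposited, which the sources used here do not define. Their median rank was at percentile 15.8 of the undifferentiated and 16.7 of the differentiated list, and that of shared regions was at percentiles 56.2 and 57.4. In the lowest 25% of scores lay 68.1% of undifferentiated-only and 65.2% of differentiated-only regions. The median gap to the nearest region of the other state was 7563 bp for undifferentiated-only and 9049 bp for differentiated-only regions, and gaps under 1 kb were found for 43 and 58 of them. The gap was at least 5 kb for 4423 (64.2%) and 6092 (68.6%), and under 5 kb for the others.

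In both states more of the length without a counterpart lay inside shared regions than in whole regions, and the more so in undifferentiated cells. Undifferentiated cells had 57.2 Mb without a counterpart, of which 17.5 Mb (30.5%) lay in whole undifferentiated-only regions and 39.8 Mb in parts of regions that did meet the other state. Differentiated cells had 53.9 Mb without a counterpart, of which 23.4 Mb (43.4%) lay in whole regions and 30.5 Mb in parts. For the 36820 pairs in which 1 region met exactly 1 region of the other state, the median log2 width ratio, differentiated over undifferentiated, was -0.05 (quartiles -0.27 and 0.11). A width over 2-fold greater was found in differentiated cells for 3.34% of pairs and in undifferentiated cells for 4.87%.

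Chromosome X stood apart. Of its 1071 undifferentiated regions 273 (25.5%; 22.9 to 28.2) were undifferentiated-only, while on the autosomes that share ranged from 9.82% on chromosome 11 to 16.6% on chromosome 12. The differentiated-only share on X was 14.9% (148 of 991), within the autosomal range of 14.5% on chromosome 16 to 20.1% on chromosome 8. On X, H3K4me1 covered 5.65 Mb before and 4.66 Mb after differentiation.

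Single-state regions lay at promoters less often than shared regions, which were over 2-fold wider at the median. A start of a protein-coding transcript fell inside 3.53% (3.11 to 3.99) of undifferentiated-only and 8.14% (7.58 to 8.73) of differentiated-only regions, against 25.4% and 25.3% of shared regions. The gap was smaller for region centres: 3.17% (2.76 to 3.61) and 7.40% (6.86 to 7.96) of them lay within 1 kb of a start, against 12.5% and 12.7% in shared regions. The centres were intergenic in 56.6% of undifferentiated-only, 48.8% of differentiated-only and 43.7% of shared regions. Seen from the 69930 annotated starts, H3K4me1 covered 49.0% in both states, 44.2% in neither, 1446 (2.07%) in undifferentiated cells only and 3313 (4.74%) in differentiated cells only. Of the starts with H3K4me1 in differentiated cells only, 48.4% lay in H3K9ac of differentiated and 39.6% in H3K9ac of undifferentiated cells. For starts with it in undifferentiated cells only, H3K9ac was found at 37.0% and 37.1%.

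Fewer single-state than shared regions carried another mark of their own state. No H4K5ac, H3K9ac, H3K4me3 or H3K36me3 was called in 57.1% of undifferentiated-only and 60.1% of differentiated-only regions, against 12.9% and 22.1% of shared regions. H4K5ac, an acetylation of histone H4 found at active enhancers and promoters, is named so by the sample labels, whereas the protocol text writes H3K5Ac. It met 29.5% (28.5 to 30.6) of undifferentiated-only regions in undifferentiated cells and 6.94% of the same regions in differentiated cells. Differentiated-only regions did not show the mirror image: H4K5ac of their own state met 25.1% (24.2 to 26.0), and that of undifferentiated cells met 34% (33.0 to 35). Acetylation, as H4K5ac or H3K9ac, was called in undifferentiated but not in differentiated cells in 15.5% of differentiated-only regions, and in both states in 19.1%. In undifferentiated-only regions the corresponding shares, with acetylation in the other state only and in both, were 1.42% and 5.87%. Shared regions had the same asymmetry: acetylation in the other state only was found in 13.3% of those of differentiated and 2.46% of those of undifferentiated cells. The H4K5ac list was longer in undifferentiated cells, with 41779 regions against 32202, and its part in this asymmetry was not tested.

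H3K9ac, a mark of active promoters and strong enhancers, was rare in both classes. It met 1.19% (0.948 to 1.48) of undifferentiated-only regions and 5.97% (5.48 to 6.48) of differentiated-only regions in their own state, and 33.9% and 42.1% of shared regions. H3K4me3, the promoter mark, met 0.508% and 1.25%. H3K36me3, which lies over transcribed gene bodies, met 20.6% of undifferentiated-only and 19.9% of differentiated-only regions. The width of the regions bore on these shares. Among regions of 1 to 5 kb in every class, H4K5ac met 27.8% of undifferentiated-only and 71.5% of shared undifferentiated regions, and 22.8% of differentiated-only and 56.4% of shared differentiated regions. H3K9ac met 18.4% and 25.3% of shared regions of that width, in place of 33.9% and 42.1%, and 1.11% and 5.66% of single-state regions. No other mark was called in 22.6% and 35.2% of shared regions of that width, in place of 12.9% and 22.1%, and in 58.2% and 62.4% of single-state regions.

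All 4 factors had fewer sites per Mb in single-state than in shared regions. In undifferentiated cells C/EBPβ sites numbered 21.0 per Mb of undifferentiated-only region (18.9 to 23.3, exact Poisson, 367 sites) and 50.4 per Mb of shared region. VDR had 3.49 per Mb (2.67 to 4.49, 61 sites) against 20.6. RUNX2 and RXR were sparse, with 1.95 (1.35 to 2.72, 34 sites) against 36 and 0.630 (0.315 to 1.13, 11 sites) against 22.8. For these 2 factors the undifferentiated-only regions lay below the average of all 20 chromosomes, 4.55 sites per Mb for RUNX2 and 2.88 for RXR. Among regions of 1 to 5 kb in every class the ratio of the density in undifferentiated-only to that in shared regions was 0.289 for VDR and 0.0518 for RXR, in place of 0.170 and 0.0276 over all widths.

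Differentiated-only regions held relatively more RUNX2 and RXR. In differentiated cells RUNX2 had 7.24 sites per Mb there (6.19 to 8.41, 169 sites) against 24.2 in shared regions and 3.00 over all chromosomes. RXR had 4.37 (3.56 to 5.30, 102 sites) against 25.1, C/EBPβ 14.9 (13.3 to 16.5, 347 sites) against 47.7, and VDR 0.557 (0.296 to 0.952, 13 sites) against 2.53. The ratio for RXR was 0.174 over all widths and 0.270 among regions of 1 to 5 kb. Sites of undifferentiated cells had the same order. RUNX2 sites of undifferentiated cells were found at 5.65 per Mb (4.73 to 6.70, 132 sites) in differentiated-only regions, above the 1.95 per Mb in undifferentiated-only regions. For RXR of undifferentiated cells the values were 3.17 (2.49 to 3.98, 74 sites) and 0.630. C/EBPβ went the other way, with 8.52 per Mb (7.38 to 9.79) in differentiated-only against 21.0 in undifferentiated-only regions.

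**Figure D2:**
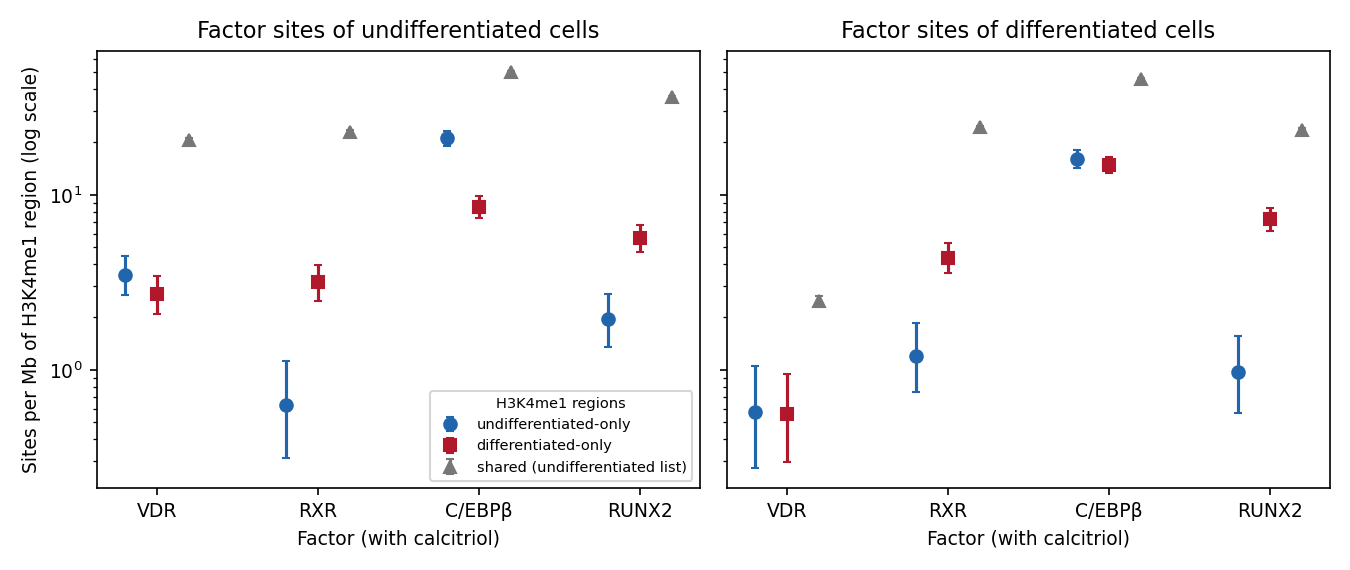
Sites per Mb of H3K4me1 region (log scale) of VDR, RXR, C/EBPβ and RUNX2 with calcitriol, called in undifferentiated (left) and differentiated cells (right), in undifferentiated-only, differentiated-only and shared regions; bars are exact Poisson 95% intervals, which cover counting only. RUNX2 and RXR of both states are denser in differentiated-only than in undifferentiated-only regions, at 5.65 against 1.95 and 3.17 against 0.630 for the sites of undifferentiated cells.

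Most single-state regions met none of these factors. A site of their own state was present in 6.10% (5.54 to 6.69) of undifferentiated-only and 5.63% (5.16 to 6.13) of differentiated-only regions, against 36.6% and 31.5% of shared regions. No site of either state was present in 92.5% and 92.3%. All 4 factors together met 1 differentiated-only region, none of the undifferentiated-only regions (0 of 6887, an upper bound of 0.0535%), and 2164 shared regions in undifferentiated and 276 in differentiated cells.

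Factor sites called in a single state mostly lay in H3K4me1 of both states. Sites were placed by whether H3K4me1 of either state covered any of their bases, edges of shared regions included. Of the 2733 RUNX2 sites called in differentiated cells only, 90.7% lay in H3K4me1 of both states, 6.07% (5.21 to 7.04) in that of differentiated cells only and 0.878% in that of undifferentiated cells only. Of the 6829 called in undifferentiated cells only, 96.2% lay in H3K4me1 of both, 1.76% in that of differentiated cells only and 0.630% in that of undifferentiated cells only. For C/EBPβ, of the 4955 sites in differentiated cells only, 80.9% lay in H3K4me1 of both states. A further 7.59% (6.87 to 8.36) lay in that of differentiated cells only and 2.52% in that of undifferentiated cells only. Of the 6340 in undifferentiated cells only, 84.8% lay in H3K4me1 of both, 4.83% in that of undifferentiated cells only and 1.70% in that of differentiated cells only. For sites of differentiated cells only, the intervals of RUNX2 and C/EBPβ in H3K4me1 of that state only overlap. The difference between the factors was not tested. The 6206 VDR sites of undifferentiated cells only lay in H3K4me1 of both states in 94.9%, and the 80 VDR sites of differentiated cells only did so in 42.5% (31.5 to 54.1), with 32 of the 80 outside H3K4me1.

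The AP-1 word TGANTCA separated the classes most among the 5 words searched on both strands of the central 1000 bp. It was present in 51.9% (50.7 to 53.1) of undifferentiated-only regions and 25.2% (24.3 to 26.1) of differentiated-only regions, on either side of the 34.1% and 34.7% of shared regions. Among regions of 1 to 5 kb in every class it was present in 53.0% and 25.4%, and in 37.99% and 39.4% of shared regions. The AP-1 word proper, TGACTCA, was present in 39.7% and 15.1%, against 23.7% and 24.5% of shared regions. With the changed centre, TGAATCA, the shares were 19.2% and 12.0%, against 13.8% and 14.0%. Base composition differed too: the median GC content was 42.4% in undifferentiated-only and 45.3% in differentiated-only regions, and 44.8% and 44.9% in shared regions. In windows of 40 to 45% GC alone TGACTCA was present in 40.3% and 15.7%, against 24.7% and 25.7% of shared regions.

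By position, TGACTCA was gathered at the centre of undifferentiated-only regions. In 200 bp steps it was present in 11.8% (11.0 to 12.6) of them just left of the centre and in 3.53% at 2 kb. In differentiated-only regions it had no peak, with 3.29% just left of the centre and 3.16% at 2 kb. Shared regions of both states had a low peak, of 5.69% and 6.07% in the same step. TGAATCA, with the changed centre, was gathered in undifferentiated-only regions too, with 4.73% (4.24 to 5.26) just left of the centre and 2.61% at 2 kb.

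**Figure D3:**
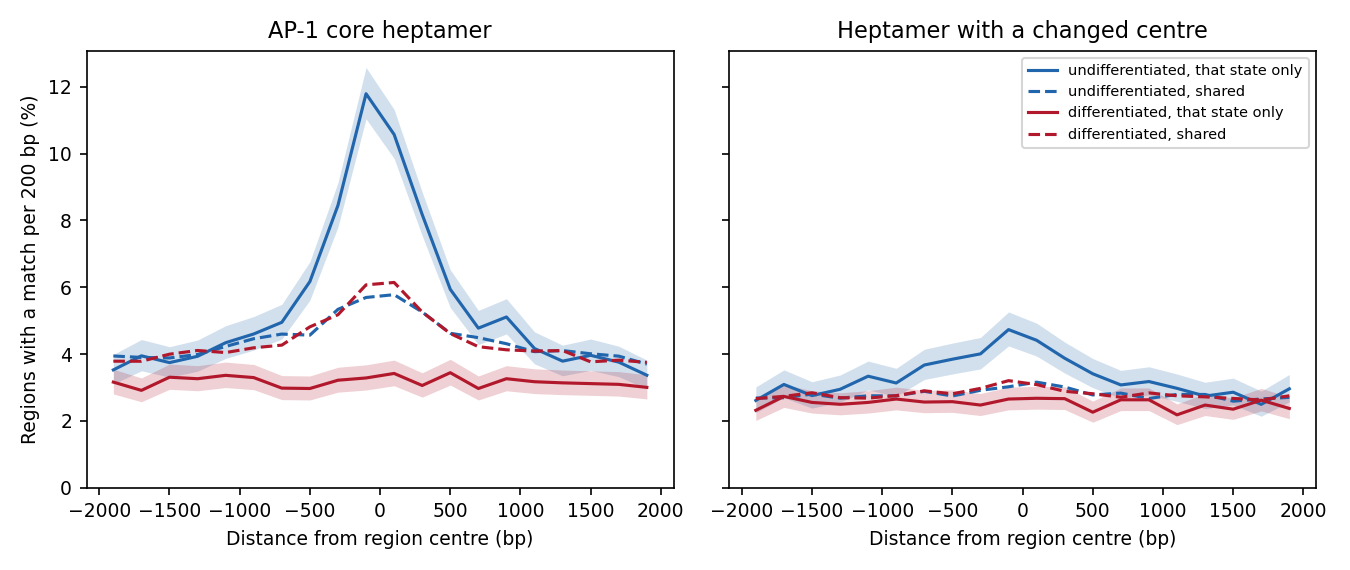
Share of H3K4me1 regions (%) with TGACTCA (left) or TGAATCA (right) in each 200 bp step against the distance from the region centre (bp), with shaded exact 95% intervals for single-state regions. The line of undifferentiated-only regions peaks at 11.8% at the centre for TGACTCA, and at 4.73% for TGAATCA, and that of differentiated-only regions has no peak for TGACTCA.

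The other words differed less. The RUNX word TGTGGT was present in 59.0% of undifferentiated-only, 60.7% of differentiated-only and 58.3% of shared regions of undifferentiated cells. In the same classes the C/EBP word TTGCNNAA was present in 40.2%, 37.7% and 36.7%. The TEAD word GGAATG was present in 49.2%, 46.6% and 46.6%. The full NFI palindrome was present in 9, 16 and 39 regions. A match describes these letters and says nothing about whether the factor was bound.

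Around genes, H3K4me1 was measured as the length covered within 50 kb of any annotated start of 22208 protein-coding genes. An undifferentiated-only region lay within that window of 28.3% of genes, and a differentiated-only region of 36.3%. The covered length was at least 10 kb greater in differentiated cells for 4.89% of genes and in undifferentiated cells for 4.44%, with a median difference of 0. Neighbouring genes share regions, and genes with much H3K4me1 have more to gain or lose: among the 4484 genes with a mean of both states of at least 40 kb, the shares were 12.6% and 9.99%. The window was longer for genes whose starts lie far apart, such as Runx2, with 11 starts, so it was not the same size for every gene. Such genes have more room to reach great lengths and differences, and neither the 10 kb limit nor the rankings allow for this. Length around a start does not show which gene a region acts on.

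Many osteoblast genes, but not all, had long stretches of H3K4me1 around them in both states. Runx2 had 134 kb covered in undifferentiated and 145 kb in differentiated cells, Sp7, the osterix gene, 76.8 and 75.5 kb, Col1a1, for type I collagen, 94.2 and 90.4 kb, and Sparc, for osteonectin, 94.7 and 94.7 kb. The osteocalcin genes Bglap and Bglap2 had 26.0 and 25.6 kb and 24.4 and 26.4 kb in their windows, but none of their starts and 0% of their gene bodies were covered in either state. Enpp1, for an enzyme that makes pyrophosphate, had 7.68 and 7.62 kb, and the transcription factor gene Msx1 had 0 and 3.17 kb. Neural and blood genes had less than the medians of 19.1 and 18.6 kb over all genes: the median over 13 neural genes was 3.90 and 4.06 kb, and over 13 blood genes 8.16 and 5.70 kb. The covered length around the starts was 0 at Gata1, Ikzf1, Pax7, Dcx, Gad1, Gad2 and Olig2 in both states, although 2.09% and 4.19% of the gene body of Ikzf1 lay in H3K4me1 farther away. It was also 0 in both states at Acan, Bmpr1b and Cdkn2a, of the chondrocyte, BMP and cell cycle lists. Some blood and neural genes were above the medians of all genes. Cd4 had 42.7 and 47.9 kb, Slc17a7 30.6 and 36.1 kb and Gfap 23.3 and 20.2 kb. By their medians, other lineages were not low in the same way. Muscle genes had medians of 17.1 and 13.6 kb, while endothelial genes had 24.1 and 29.5 kb, adipocyte genes 28.2 and 29.0 kb and chondrocyte genes 30.95 and 36.9 kb, above all genes in both states.

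The greatest number of genes longer in differentiated cells was in the bone matrix list. Of its 20 genes, 6 were at least 10 kb longer in differentiated cells and 2 in undifferentiated cells, against 4.89% and 4.44% of all genes. The median difference was 0.256 kb. The median covered length of the list was 65.3 and 68.7 kb, so the shares of 12.6% and 9.99% among genes with at least 40 kb are the nearer comparison for its 30% and 10%. A differentiated-only region lay within 50 kb of 10 of the 20 (50%), against 36.3% of all genes. This share was not particular to bone matrix genes. It was 58.8% for cell cycle, 56.25% for muscle and 54.5% for Wnt genes. It was also 50% for the vitamin D response, AP-1 and endothelial lists, and below 50% for the others. Ank, whose product exports pyrophosphate, had 68.7 kb in undifferentiated and 99.5 kb in differentiated cells, with 3 differentiated-only regions. Fn1, for fibronectin, had 50.3 and 73.6 kb. Alpl, for the alkaline phosphatase that starts mineralization, had 79.4 and 98.7 kb, and Phospho1, for the matrix vesicle phosphatase, 43.7 and 58.2 kb. Ibsp, for bone sialoprotein, had 47.8 and 60.7 kb, and Postn, for periostin, 43.3 and 54.8 kb. The 2 longer in undifferentiated cells were Spp1, for osteopontin, with 85.3 and 71.6 kb, and Lox, for the collagen cross-linking enzyme lysyl oxidase, with 50.1 and 37.7 kb. At Spp1 all 6 annotated starts stayed covered and the single undifferentiated-only region lay 43.5 to 48.5 kb from the gene's start.

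The differences at these genes took several forms. At Alpl a differentiated-only region of 5.98 kb lay at -21.6 to -15.6 kb from the gene's start, chr4:137367904-137373881, and H4K5ac already covered 96.7% of it in undifferentiated cells. At Fn1 no region was found in a single state. A region of 27.8 kb over the starts in undifferentiated cells stood against one of 73.2 kb that reached past the gene's end in differentiated cells, and 40.4% and 97.6% of the gene body were covered. The 3 annotated starts of Fn1 were covered in undifferentiated cells. None was covered in differentiated cells, where a gap of 1.60 kb began at the gene's start. Within 20 kb of its starts Fn1 was thus longer in undifferentiated cells, with a difference of -1.90 kb.

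Osteocyte genes and osteoblast transcription factors had members at least 10 kb longer in differentiated cells and none in undifferentiated cells. This held for 2 of 8 osteocyte genes, with a median difference of 1.65 kb, and for 3 of 18 transcription factor genes (16.7%), against 4.89% of all genes and 12.6% of those with at least 40 kb. The share of the transcription factor genes is thus near that of genes with much H3K4me1. Genes at least 10 kb longer in undifferentiated cells made up 4.44% of all genes and 9.99% of those with at least 40 kb. At such shares, lists of 8 and 18 genes are too small to read their absence as a result. Sost, for sclerostin, the osteocyte inhibitor of Wnt signalling, had 12.7 kb in undifferentiated and 26.3 kb in differentiated cells. Its gene body was covered to 0% and 100%, by a single differentiated-only region of 10.6 kb, chr11:101822935-101833506, which lay 6799 bp from the nearest undifferentiated region. No factor site and no H4K5ac, H3K9ac or H3K4me3 of differentiated cells was called in it. Mepe, for a matrix phosphoglycoprotein, had 51.5 and 64.2 kb. Its window overlaps that of its neighbour Ibsp in the bone matrix list, so the gains counted at these genes are not independent. The median difference of the transcription factor genes was 4.17 kb. Those longer in differentiated cells were Runx2, Foxo1, with 20.3 and 31.3 kb, and Mef2c, an activator of Sost in osteocytes, with 5.17 and 18 kb and 4 differentiated-only regions.

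**Figure D4:**
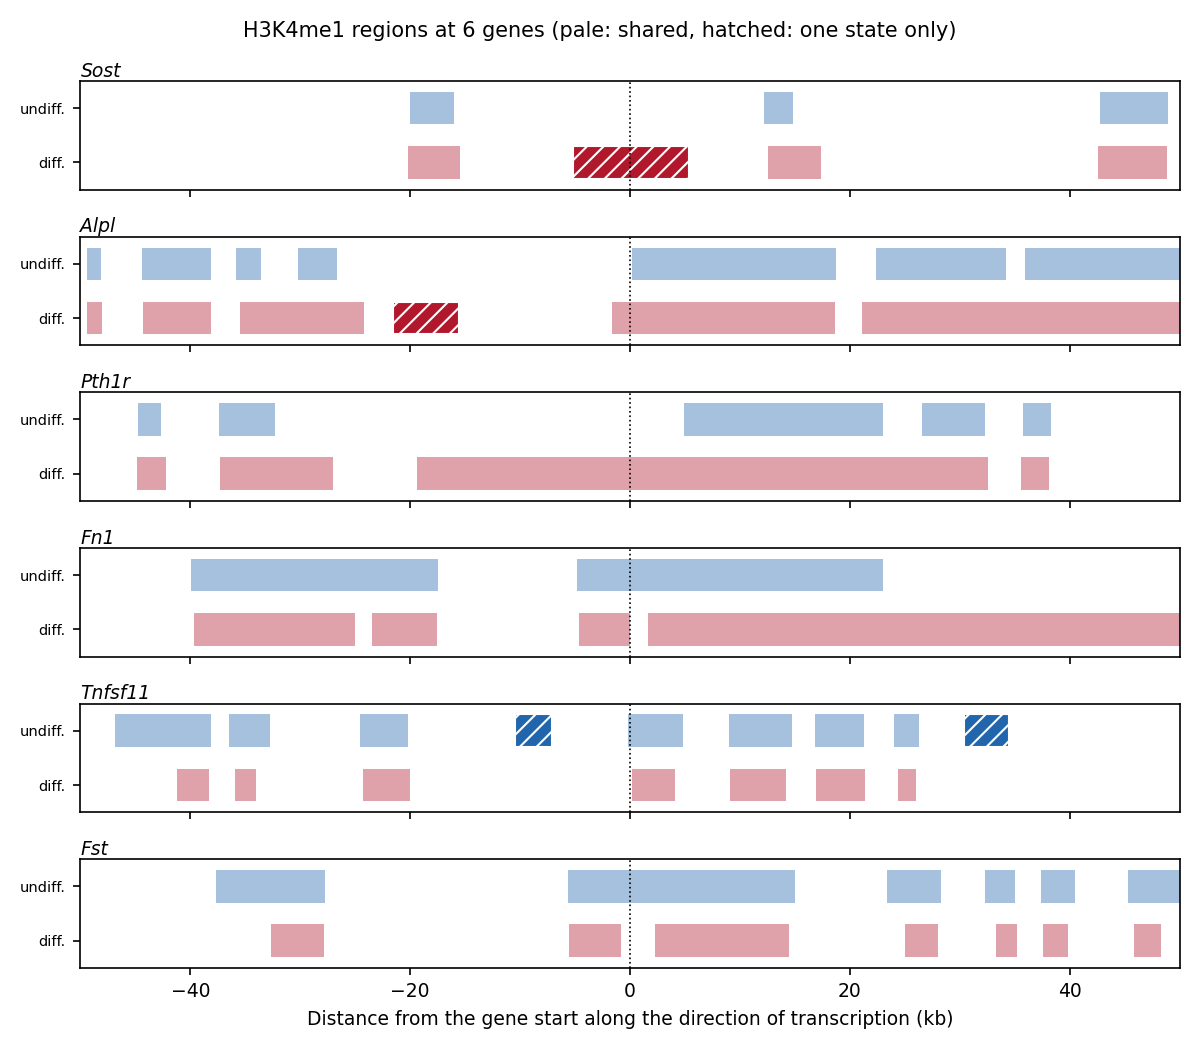
H3K4me1 regions in undifferentiated (upper bars) and differentiated cells (lower bars) against the distance from the gene start along the direction of transcription (kb) at Sost, Alpl, Pth1r, Fn1, Tnfsf11 and Fst; pale bars are shared regions and hatched bars are regions of a single state. The hatched bar over the start of Sost is the 10.6 kb region of differentiated cells, and those at Tnfsf11 are the 3.41 and 4.07 kb regions of undifferentiated cells.

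Signalling genes had members longer in either state. Among all genes with at least 40 kb 12.6% were longer in differentiated and 9.99% in undifferentiated cells, and the shares of both lists longer in differentiated cells were near the former. Of 22 Wnt genes 3 (13.6%) were at least 10 kb longer in differentiated cells and 1 (4.55%) in undifferentiated cells, with a median difference of 3.79 kb. Axin2, a negative feedback target of the pathway, had 36.9 and 62.3 kb, Tcf7 31.6 and 44.4 kb and the secreted inhibitor gene Dkk1 8.78 and 20.6 kb. Fzd4, for a Wnt receptor, had 46.8 and 22.5 kb, without any undifferentiated-only region, since each of its 6 regions met at least 1 of differentiated cells. Of 25 genes of BMP and TGF-beta signalling 3 (12%) were longer in differentiated and 4 (16%) in undifferentiated cells, with a median of -1.19 kb. Bmp6 had 13.4 and 28.8 kb, through 7 differentiated-only regions between -48.9 and 54.8 kb from its start, 5 of them without any other mark in either state. Tgfb2 had 117 and 133 kb, and Smad3, for a transducer of TGF-beta signals, 120 and 131 kb. Among those longer in undifferentiated cells, the antagonist gene Fst, for follistatin, with 46.3 and 31.4 kb, stood beside the ligand gene Bmp4, with 56.0 and 40.3 kb, and the receptor gene Bmpr1a, with 88.0 and 78.0 kb.

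Genes that couple osteoblasts to osteoclasts had the lowest median difference of the 16 lists, -5.33 kb. None of the 13 was at least 10 kb longer in differentiated and 2 (15.4%) were in undifferentiated cells, against 4.89% and 4.44% of all genes and 12.6% and 9.99% of those with at least 40 kb. The 18 vitamin D response genes had the same counts and a median of -0.224 kb. Tnfsf11, which encodes the osteoclast-forming cytokine RANKL, is on both lists. It had 41.7 kb in undifferentiated and 24.2 kb in differentiated cells. An undifferentiated-only region of 3.41 kb lay at -10.5 to -7.07 kb from its start, chr14:78714918-78718331, and another of 4.07 kb at 30.4 to 34.5 kb, chr14:78673372-78677442. H4K5ac of undifferentiated cells covered 100% and 94.8% of them and that of differentiated cells none. No site of the 4 factors lay in either. Both annotated starts of Tnfsf11 were covered in undifferentiated cells and neither in differentiated cells. Cxcl12, for a chemokine that retains blood stem cells, had 56.9 and 38.4 kb. Tnfrsf11b, for the decoy receptor of RANKL, had 54.5 and 51.5 kb, and Vdr, which encodes the receptor for calcitriol, 102 and 103 kb.

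**Figure D5:**
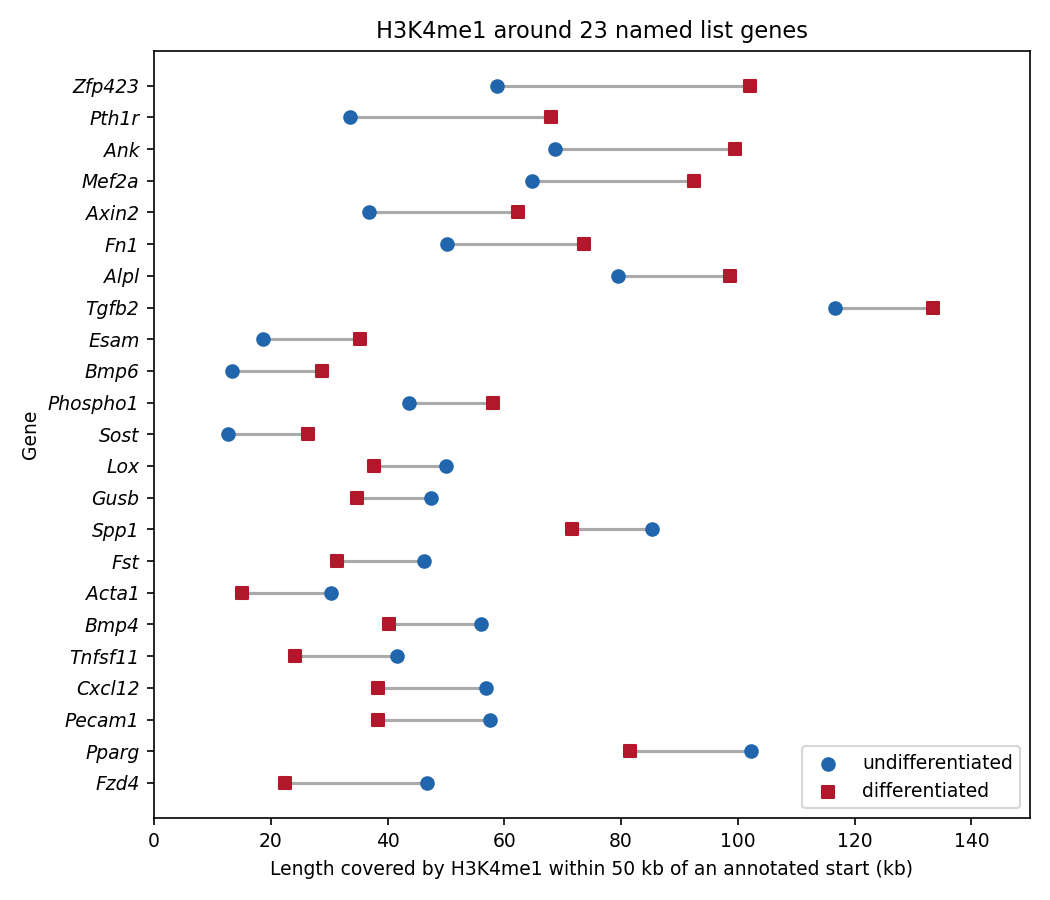
Length covered by H3K4me1 within 50 kb of an annotated start (kb) in undifferentiated (circles) and differentiated cells (squares) for 23 of the list genes with the greatest difference, 12 longer in differentiated and 11 in undifferentiated cells, joined by grey lines. Zfp423 has the greatest difference, with 58.7 and 102 kb, and Fzd4 leads in the other direction, with 46.8 and 22.5 kb.

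Lists of other lineages and of cell growth also held genes that differed by at least 10 kb. The shares to set beside them are 4.89% longer in differentiated and 4.44% in undifferentiated cells among all genes. Among genes with at least 40 kb they are 12.6% and 9.99%. Of 13 chondrocyte genes 3 (23.1%) were longer in differentiated and none in undifferentiated cells, with a median difference of 3.06 kb. Matn1, for a cartilage matrix protein, had 15.8 and 26.8 kb, and Sox6 51.8 and 65.1 kb. Pth1r, the parathyroid hormone receptor gene, expressed by osteoblasts as well as chondrocytes, had 33.7 and 68.0 kb. Its 3 starts were covered in differentiated cells only, by a region of 51.9 kb that reached from -19.3 to 32.6 kb from the start. H3K9ac covered 11.6% of that region in undifferentiated and 67.6% in differentiated cells. Of 15 adipocyte genes 2 (13.3%) were longer in each state, with a median of -0.714 kb. Zfp423, a gene for a factor of preadipocyte commitment, had 58.7 and 102 kb, and Pparg, for the adipocyte master regulator, 102 and 81.5 kb. Lpl, for lipoprotein lipase, had 19.4 and 30.8 kb, and Fabp4, for a fatty acid binding protein, 22.8 and 11.2 kb.

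The shares of all genes, 4.89% and 4.44%, and of those with at least 40 kb, 12.6% and 9.99%, also stand beside the next lists. Of 16 muscle genes, with a median of -0.971 kb, 1 (6.25%) was longer in each state. These were Mef2a in differentiated cells, with 64.8 and 92.6 kb, and Acta1 in undifferentiated cells, with 30.4 and 15.0 kb. Of 10 endothelial genes, with a median of -1.16 kb, 1 (10%) was longer in each state. Esam had 18.6 and 35.3 kb and 4 differentiated-only regions, and Pecam1 57.5 and 38.3 kb. Of 17 cell cycle genes 1 (5.88%) was longer in differentiated and 2 (11.8%) in undifferentiated cells, with a median of 1.55 kb. Gadd45a, a growth arrest gene, had 32.8 and 45.5 kb, the inhibitor gene Cdkn1b 54.5 and 44.1 kb and Myc 39.97 and 29.8 kb. Of 13 blood genes, with a median of 0, the 2 (15.4%) that differed by 10 kb were longer in undifferentiated cells. They were Csf1r, with 33.6 and 23.1 kb, and Ptprc, with 16.1 and 5.19 kb. No neural gene differed by 10 kb, and the median was 0. Of 16 housekeeping genes only Gusb (6.25%), with 47.5 and 34.7 kb, did, and the median was -0.0205 kb. Of the 10 AP-1 genes only Jun (10%) differed by 10 kb, with 41.6 and 30.9 kb and 3 undifferentiated-only regions, and the median was 0.432 kb. Fosl1, for an AP-1 subunit of osteoblasts, had 75.7 and 75.4 kb.

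Among all genes the greatest excess in differentiated cells was at Mad1l1, with 47.5 and 129 kb, Wnk2, with 33.5 and 93.0 kb, Itga8, for an integrin subunit that binds fibronectin and osteopontin, with 45.4 and 104 kb, Lgi2, with 8.28 and 64.9 kb, and Dip2b, with 95.6 and 151 kb. At Lgi2 the gene body was covered to 0% and 90.8%, and RUNX2 sites within the window numbered 1 in undifferentiated and 3 in differentiated cells. In undifferentiated cells it was at Fmn1, for an actin regulator, with 146 and 104 kb, Elovl7, a fatty acid elongase gene, with 46.7 and 4.93 kb, Spp2, with 55.9 and 15.2 kb, Sbf2, with 115 and 75.7 kb, and Krt13, a keratin gene, with 57.1 and 18.6 kb. At Elovl7 no site of any of the 4 factors lay in the window in either state.

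The widest single-state regions were mostly far from starts. In undifferentiated cells the widest lay in an intron of Col19a1 and measured 24.8 kb, chr1:24512059-24536820, with H4K5ac over 83.5% of it. A region of 19.5 kb in an intron of Dok5 was fully covered by H4K5ac, and those in an intron of Rarres1 (16.9 kb), 169 kb from E2f7 (16.0 kb) and 151 kb from Fam19a5 (15.7 kb) had none. None of these 5 carried H4K5ac of differentiated cells. In differentiated cells the widest, of 35.6 kb, lay 7.31 kb from Aqp2, chr15:99366589-99402175, and held 3 RUNX2 and 2 RXR sites of that state. H4K5ac covered 70.3% of it before and 100% after differentiation. The next was 27.8 kb, 299 kb from Slc30a10, with 4 C/EBPβ sites in differentiated against 1 in undifferentiated cells and H4K5ac over 0% and 100%. Regions in an intron of Etl4 (26.6 kb) and 54.1 kb from Mbl2 (24.04 kb) held no site of the 4 factors. Before and after differentiation, H4K5ac covered 94.0% and 97.3% of the region in Etl4 and 100% and 51.6% of that near Mbl2.

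A region in an intron of Fry, chr5:150952134-150976673, had H4K5ac and factor sites of the other state only. It measured 24.5 kb, ranked at percentile 94.9 of scores in the differentiated list, and lay 237910 bp from any H3K4me1 region of undifferentiated cells. H4K5ac covered 100% of it in undifferentiated and 0% in differentiated cells, and its 1 VDR, 3 RXR and 3 RUNX2 sites were all called in undifferentiated cells. The lists hold no signal, so the level of H3K4me1 there in undifferentiated cells is not known. Acetylation of the other state only was not rare in this class. It was found in 15.5% of differentiated-only regions, against 7.38% with acetylation in their own state only. Nor was it particular to this class: in shared regions of differentiated cells the shares were 13.3% and 1.99%. Among regions of 1 to 5 kb, acetylation of the other state only was found in 15.2% of differentiated-only and 20.1% of shared regions.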

How the data were processed

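Regions were taken as deposited by the authors, 1 list for each antibody, state and treatment. Per the submitters' processing notes, Bowtie and HOMER were used with build mm9. Their versions, parameters and peak thresholds are not given in the notes used here. The design text says that biological replicates were made and analysed apart, and per the file contents 85.1% (undifferentiated) and 87.3% (differentiated) of H3K4me1 regions are named as merged from 2 peaks, so each list was read as an overlap of replicates. The score deposited by the authors for each region has no stated unit, differs in scale between lists and was used only to rank regions within a list. Depth is unknown.

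Chromosomes 1 to 19 and X were used, with the NCBIM37 (mm9) sequence and GENCODE vM1. Overlaps, lengths, words and intervals were computed with numpy 2.4.6, scipy 1.17.1 and pysam 0.24.0, and the overlap code was tested on simulated data. Intervals are exact Clopper-Pearson for shares and exact Poisson for sites per Mb, at 95%. With 1 list per state nothing was tested between states. Regions and sites were called together at 1 bp of overlap, and a gene's window reached 50 kb to either side of every start.

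Members, the 16 gene lists (238 genes in the annotation; Spi1 and Map2 were not matched) and words were chosen with earlier results of these data known. Genes were named by rule: the 12 list members per direction with the greatest difference in covered length, 5 per direction from all genes (1 per 100 kb), and the 5 widest single-state regions per state. 1 list member named by this rule is not reported here. Other list members were named after their values were seen. Alternatives were other overlap rules, score and width filters, joining of regions and other windows. Comparison by width class, base composition and single AP-1 words was added after seeing the data.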

Additional observations from a re-analysis of the deposited data

Results flagged for a closer look

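A few regions were called outside the chromosomes compared. The undifferentiated H3K4me1 list held 4 regions there, 1 on chromosome Y and 3 on the mitochondrial genome, which carries no histones. The total passed the limit of 3 set for a closer look, while neither count did so alone. The differentiated list held 2, both mitochondrial. They entered no comparison.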

How the results depend on the processing

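With 1 list per state, depth limits every number in a way that cannot be measured. No paired analysis was possible because each state has 1 list and the labels give no replicate numbers. The number of single-state regions depended most on the overlap rule and the score. In undifferentiated and differentiated cells it was 14818 and 17853 when a single region had to share 50% of both lengths, 11574 and 15074 among regions merged from exactly 2 peaks, and 2202 and 3095 with the lowest 25% by score left out of the list classed. Among regions at least 2 kb wide the order of the states turned, with 6216 undifferentiated-only and 5928 differentiated-only regions. The Jaccard index was 0.715 with the lowest 25% by score left out of both lists and 0.727 with regions joined across 3 kb. The length ratio was 0.993, 0.994 and, on autosomes, 0.993.

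Site density in single-state over shared regions stayed below 1 for all factors in all settings tried. With the lowest 25% by score left out it was 0.487 (C/EBPβ) and 0.0817 (RUNX2) in undifferentiated and 0.396 (VDR), 0.259 (RXR), 0.444 (C/EBPβ) and 0.429 (RUNX2) in differentiated cells. At least 5 kb from the other state it was 0.475 for C/EBPβ in undifferentiated and 0.355 for RUNX2 in differentiated cells. Among regions of 1 to 5 kb it was 0.289 (VDR), 0.0518 (RXR) and 0.518 (C/EBPβ) in undifferentiated and 0.270 (RXR), 0.363 (C/EBPβ) and 0.434 (RUNX2) in differentiated cells.

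With 50% of a region to be covered, the shares of undifferentiated-only regions were 26.4% (H4K5ac), 0.900% (H3K9ac) and 18.7% (H3K36me3), and of differentiated-only regions 23.3%, 4.56%, 17.2% and, for H3K4me3, 0.608%. With the lowest 25% of the other mark left out they were 18.1%, 0.900%, 19.4% and 0.276%, and 12.1%, 2.29%, 18.4% and 0.428%, in the same order of marks. Among regions of 1 to 5 kb H4K5ac met 27.8% and 22.8%. TGACTCA alone was present in 39.7% and 15.1% and TGAATCA alone in 19.2% and 12.0%, and within 40 to 45% GC TGANTCA was present in 26.9% of differentiated-only regions.

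Genes near an undifferentiated-only region numbered 3302 within 20 kb, 9785 within 100 kb, and 4006 when that region had to lie at least 5 kb from the other state. Genes near a differentiated-only region numbered 4375 within 20 kb. For the 34 genes named by rule, 63 of 102 values in other windows or with the score filter kept their direction within 1.5 times, 38 kept their direction only, and 1 reversed, Fn1 within 20 kb, at -1.90 kb. The cause of these shifts was not tested.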

Other observations

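The number of annotated starts covered by H3K4me1 and the length covered around them did not always go together. The genes given here were chosen after their values were seen. At Runx2 the mark covered 6 of 11 starts in undifferentiated and 1 of 11 in differentiated cells, while its covered length was 134 and 145 kb. At Tcf7l2, a transcription factor of Wnt signalling, it covered 17 and 9 of 17 starts with 139 and 134 kb. At Myc it covered 5 and 0 of 5 starts, with 39.97 and 29.8 kb. More starts were covered in differentiated cells at Ywhaz, with 3 and 7 of 7 starts and 43.9 and 44.1 kb, and at Sema4d, a semaphorin gene, with 5 and 9 of 13 starts and 58.0 and 58.8 kb.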
